A study of Mus musculus with 4 samples.

Results

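The machinery that loads peptides onto MHC class I was followed through 10 genes: the light chain gene B2m, the classical heavy chain genes H2-K1 and H2-D1, the peptide transporter and loading genes Tap1, Tap2 and Tapbp, the immunoproteasome subunit genes Psmb8, Psmb9 and Psmb10, and Nlrc5, which encodes the transactivator of this gene group. They were picked by symbol from the deposited expression table, where the 10 symbols matched 11 of 14226 rows, H2-K1 having a main and a minor row. The table holds 4 RNA sequencing libraries of spleen cell suspensions from C57BL/6N mice, 2 of wild-type mice and 2 of transgenic vcS5 +/T mice, in a series on an activating STAT5 mutation and peripheral T cell lymphoma. STAT5 is the transcription factor downstream of the interleukin 2, 7 and 15 receptors. The vcS5 columns are headed as a single transgenic line, and neither the promoter that drives the transgene nor the age or sex of the mice is given in the sources used here. No treatment is named for either group. Values are FPKM, read numbers scaled to the length of the transcript and the depth of the library, so levels can be compared between genes per length.

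Almost every nucleated cell displays peptides of its own cytosolic proteins on MHC class I, where CD8 T cells read them. Proteasomes cut the proteins, the TAP1 and TAP2 transporter carries peptides into the endoplasmic reticulum, and tapasin, encoded by Tapbp, holds the empty heavy chain with beta-2 microglobulin at the transporter until a peptide fits. Interferon gamma raises these genes in many cell types and brings in the immunoproteasome, in which the products of Psmb8, Psmb9 and Psmb10 replace those of Psmb5, Psmb6 and Psmb7. NLRC5 has no DNA-binding domain of its own and acts through factors seated on a compound promoter element called the SXY module, which class I and class II genes share in form; its relative CIITA does the same for class II.

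The promoters of the heavy and light chain genes are shown first because they hold short patterns from 2 boxes of that module. The rest of the module was not searched for. RefSeq sequences (GRCm38.p6, the assembly of mm10) reaching from 250 bases before to 50 after the start of transcription were given for 8 of the 10 genes; Nlrc5 and Tap2 have no entry. A search of both strands for TGACG (the core of the X2 box), 20 unspecified bases and ATTGG (the inverted CCAAT of the Y box) found the pattern in 3 of the 8, H2-K1, H2-D1 and B2m. It was present in 31 of 32851 such windows, or 0.0944%. Among genes of the other pathway lists used below it was found in H2-M3 alone, and so not in the class II list. The 30-base stretches, with both boxes in capitals, are at chr17:34000359-34000388 on the minus strand for H2-K1, chr17:35262993-35263022 on the plus strand for H2-D1 and chr2:122147609-122147638 on the plus strand for B2m.
H2-K1: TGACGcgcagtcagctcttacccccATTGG
H2-D1: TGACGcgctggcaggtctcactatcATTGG
B2m: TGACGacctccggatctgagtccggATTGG
Between the boxes, H2-K1 and H2-D1 have the same base at 13 of 20 positions, while H2-K1 and B2m do at 3 and H2-D1 and B2m at 2. The spacing was set by the search, and the bases between are alike mainly in the 2 related heavy chain genes. For H2-D1, 71 bases lie between the stretch and the RefSeq start. The GENCODE span of that gene, given below, starts earlier, at 35262730, and so contains the stretch.

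The 160 bases before the H2-K1 start (chr17:34000348-34000507, minus strand) also hold GGGGA, 1 unspecified base and TCCCC, which has the form of an NF-kappaB site, and GTTTC, 2 unspecified bases and TTCT, part of the interferon response sequence of class I promoters. Those before the B2m start (chr2:122147527-122147686, plus strand) hold GAAA, 2 unspecified bases and GAAA on the strand shown, a core of the interferon-stimulated response element. All matches and the X2 and Y boxes are in capitals.
H2-K1: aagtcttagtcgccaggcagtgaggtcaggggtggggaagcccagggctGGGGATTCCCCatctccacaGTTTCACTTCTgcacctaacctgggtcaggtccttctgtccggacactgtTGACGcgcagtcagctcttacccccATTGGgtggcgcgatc
B2m: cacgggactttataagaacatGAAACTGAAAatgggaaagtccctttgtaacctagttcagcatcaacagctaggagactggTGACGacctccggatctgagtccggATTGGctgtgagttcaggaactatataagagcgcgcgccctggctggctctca
On either strand, GGGGA, 1 base and TCCCC was found in the windows of H2-K1 and H2-D1, against 0.0487% of all windows. The same 2 genes held GTTTC, 2 bases and TTCT, against 0.731%, and B2m held GAAA, 2 bases and GAAA, against 3.44%. Genes of the other pathway lists used below shared these patterns. GGGGA, 1 base and TCCCC was also in H2-Q6. GTTTC, 2 bases and TTCT was also in H2-M2, H2-M3, H2-Q4, H2-Q6, H2-Q7 and H2-Q10. GAAA, 2 bases and GAAA was also in Cxcl10, Erap1, Gbp2, Gbp3, H2-T22, H2-T23, Irf2, Psme1, Socs1 and Stat2. TTC, 3 unspecified bases and GAA, the core to which STAT factors bind, was found in 1 of the 8, Psmb8, against 8.3% of all windows. These are matches of letters and no measure of binding.

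Nlrc5 was the member with the largest difference between the groups, and no member passed the test. Of the 10 genes (main row for H2-K1), all had a higher mean in vcS5, with log2 changes on log2(FPKM + 1) from 0.08 to 0.80 and a median of 0.28, against a median of 0.00125 over all rows; with quantile normalization the sign of H2-D1 turned and B2m and H2-K1 came to 0.09 and 0.10, and the signs of Tap1 and Tapbp turned with 1 library left out. By limma, 0 of the 10 had a Benjamini-Hochberg adjusted p under 0.05, where 8.72% of all rows did (4.59% as higher in vcS5), and 2 had an unadjusted p under 0.05 (25.3% of all rows). A q under 0.05 was given to 0 of the 10 in the authors' deposited table, against 11.5% of rows. In 8 of the 10 both vcS5 libraries lay above both wild-type libraries, an order found in 26.9% of all rows. In bulk spleen, fewer cells of a type and less RNA per cell cannot be told apart.

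**Figure D1:**
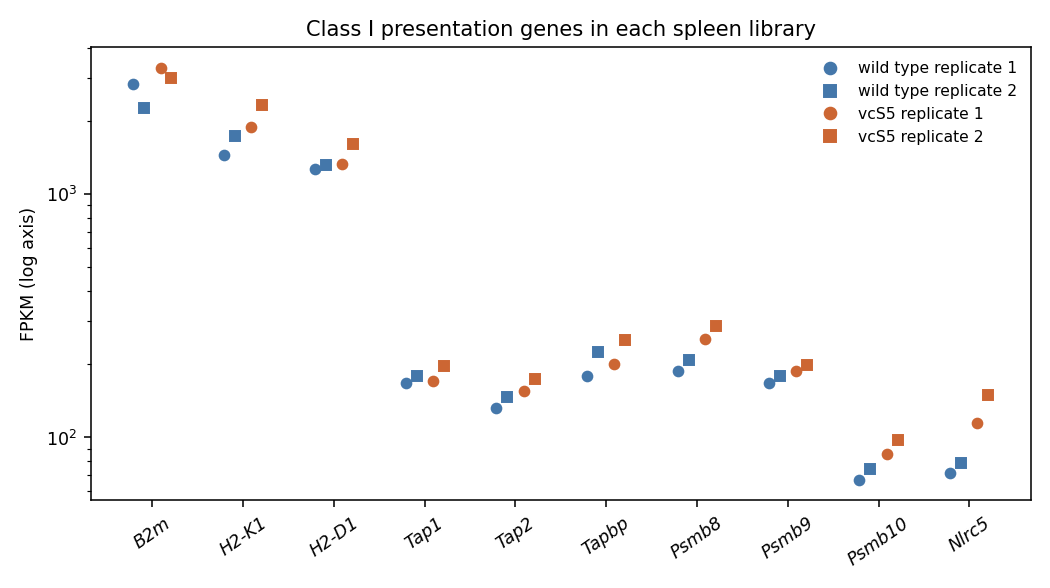
FPKM on a log axis for the 10 genes in each of the 4 libraries (blue, wild type; orange, vcS5; circles, replicate 1; squares, replicate 2). B2m, H2-K1 and H2-D1 lie at 1264 FPKM or more in all 4 libraries, and Nlrc5 shows the widest gap between the groups.

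B2m encodes beta-2 microglobulin, the light chain that every class I heavy chain needs to reach the surface. B2m (mm10 chromosome 2, 122147686 to 122153083, plus strand) measured 2831 and 2267 FPKM in the wild-type pair against 3302 and 3013 FPKM in the vcS5 pair. The groups did not overlap, but the gap between them was smaller than the distance between the wild-type libraries. Its log2 change was 0.32 (SE 0.262, 95% interval -0.35 to 0.98, adjusted p = 0.532 by limma). The gene overlaps Patl2 on the other strand, and reads from the opposite strands are counted together here.

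The heavy chain genes H2-K1 and H2-D1 encode the polymorphic chains whose groove holds the peptide. H2-K1 (chromosome 17, 33996017 to 34000347, minus strand) measured 1453 and 1733 FPKM in the wild-type pair against 1883 and 2325 FPKM in the vcS5 pair. Both vcS5 libraries were the higher ones, but the gap between the groups was smaller than the distance within either. The log2 change was 0.40 (SE 0.246, 95% interval -0.23 to 1.02, adjusted p = 0.390 by limma). The minor H2-K1 row, which shares the locus, measured 13.3 and 16.1 FPKM in the wild-type pair against 13.5 and 12.8 FPKM in the vcS5 pair, so it added little to the main row and the groups overlapped.

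H2-D1 (chromosome 17, 35262730 to 35267499, plus strand) measured 1264 and 1321 FPKM in the wild-type pair against 1326 and 1603 FPKM in the vcS5 pair. Here vcS5 replicate 1 stood next to the wild-type libraries and replicate 2 alone was clearly higher. The log2 change was 0.17 (SE 0.217, 95% interval -0.38 to 0.73, adjusted p = 0.693 by limma), and it was -0.14 with quantile normalization. The H2-K1, H2-D1 and H2-Q genes are alike in sequence, and reads may be split between them.

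Peptide transport and loading genes differed little between the groups. Tap1 (chromosome 17, 34187553 to 34197225, plus strand), one arm of the transporter, measured 168 and 179 FPKM in the wild-type pair against 171 and 197 FPKM in the vcS5 pair. The groups overlapped, and the log2 change was 0.08 (SE 0.155, 95% interval -0.31 to 0.48, adjusted p = 0.799 by limma). Tap2 (chromosome 17, 34203527 to 34216321, plus strand), the other arm, measured 132 and 147 FPKM in the wild-type pair against 155 and 174 FPKM in the vcS5 pair. Both vcS5 libraries were higher, by less than the test required (a log2 change of 0.24 with SE 0.154 and limma adjusted p = 0.409).

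Tapbp (chromosome 17, 33915899 to 33929292, plus strand), the tapasin gene, measured 179 and 225 FPKM in the wild-type pair against 200.5 and 252 FPKM in the vcS5 pair. Replicate 2 was the higher library in both groups, and the groups overlapped. Its log2 change was 0.16 (SE 0.202, 95% interval -0.35 to 0.68, adjusted p = 0.694 by limma). This row merges Tapbp with Zbtb22, so its value is not that of tapasin alone. Tap2, Psmb8, Psmb10 and Nlrc5 also overlap annotated noncoding genes on the opposite strand.

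Among the immunoproteasome subunits, Psmb8 and Psmb10 were further apart between the groups than Psmb9. Psmb8 (chromosome 17, 34197721 to 34201454, plus strand), encoding the chymotrypsin-like subunit beta5i, measured 188 and 209 FPKM in the wild-type pair against 254 and 286 FPKM in the vcS5 pair. The gap between the groups was wider than either pair of replicates (a log2 change of 0.44 with SE 0.160 and limma unadjusted p = 0.0377 and adjusted p = 0.170). Psmb10 (chromosome 8, 105935735 to 105938444, minus strand), encoding beta2i, measured 67.0 and 74.0 FPKM in the wild-type pair against 85.8 and 97.6 FPKM in the vcS5 pair. The groups lay apart here too (a log2 change of 0.37 with SE 0.148 and limma adjusted p = 0.200).

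Psmb9 (chromosome 17, 34181987 to 34187764, minus strand), encoding beta1i, measured 168 and 179 FPKM in the wild-type pair against 188 and 199 FPKM in the vcS5 pair. The 4 libraries formed an almost even ladder, and the log2 change was 0.16 (SE 0.144, 95% interval -0.21 to 0.52, adjusted p = 0.579 by limma). Psmb9 and Tap1 are transcribed away from each other, with RefSeq starts 226 bases apart at 34187330 and 34187556, and their annotated transcripts overlap. Their levels were almost the same in wild type, at means of 174 and 173 FPKM. The libraries are unstranded, so reads from the overlap cannot be assigned to either gene by strand.

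Nlrc5 (chromosome 8, 94434356 to 94527272, plus strand) measured 71.2 and 78.8 FPKM in the wild-type pair against 114 and 150.0 FPKM in the vcS5 pair. Both vcS5 libraries stood well above both wild-type libraries, and they also differed more from each other than the wild-type pair did. The mean was 1.76-fold higher in vcS5 (74.97 ± 5.36 and 132 ± 25.3 FPKM, SD, n = 2 each). The log2 change was 0.80 (SE 0.184, 95% interval 0.33 to 1.27), with an unadjusted p of 0.00688 and an adjusted p of 0.0639 by limma. Over the alternatives tried, its adjusted p ran from 0.0416 to 0.244, and it passed with quantile normalization (0.0416) and with the replicate number as a block (0.0456). The authors' deposited table gives a log2 fold change of 0.82 and a q of 0.0993.

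For 8 of the 10 genes the 95% interval ended below a log2 change of 1, a 2-fold rise on this scale, the exceptions being Nlrc5 (1.27) and H2-K1 (1.02). No interval reached a log2 change of -0.5 or lower; the lowest bound was -0.38, for H2-D1.

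By level, the chains stood far above the rest. Among all 14226 rows ordered by mean FPKM, B2m ranked 27, H2-K1 50 and H2-D1 78, while Psmb8 ranked 412, Tapbp 447, Psmb9 539, Tap1 550, Tap2 654, Nlrc5 1022 and Psmb10 1351. In wild type the neighbours Tapbp and Psmb8, Psmb9 and Tap1, and Nlrc5 and Psmb10 overlapped in their libraries. In vcS5 Nlrc5 lay above Psmb10 in both libraries. Genes near Nlrc5 in pattern were sought among annotated genes with a mean of at least 5 FPKM, with the members left out beforehand. By the root mean square distance over the 4 libraries on centred log2 values, the nearest were Rpp40 (0.0198), Sla2 (0.0352), Tbl2 (0.0367) and Fyb (0.0412).

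**Figure D2:**
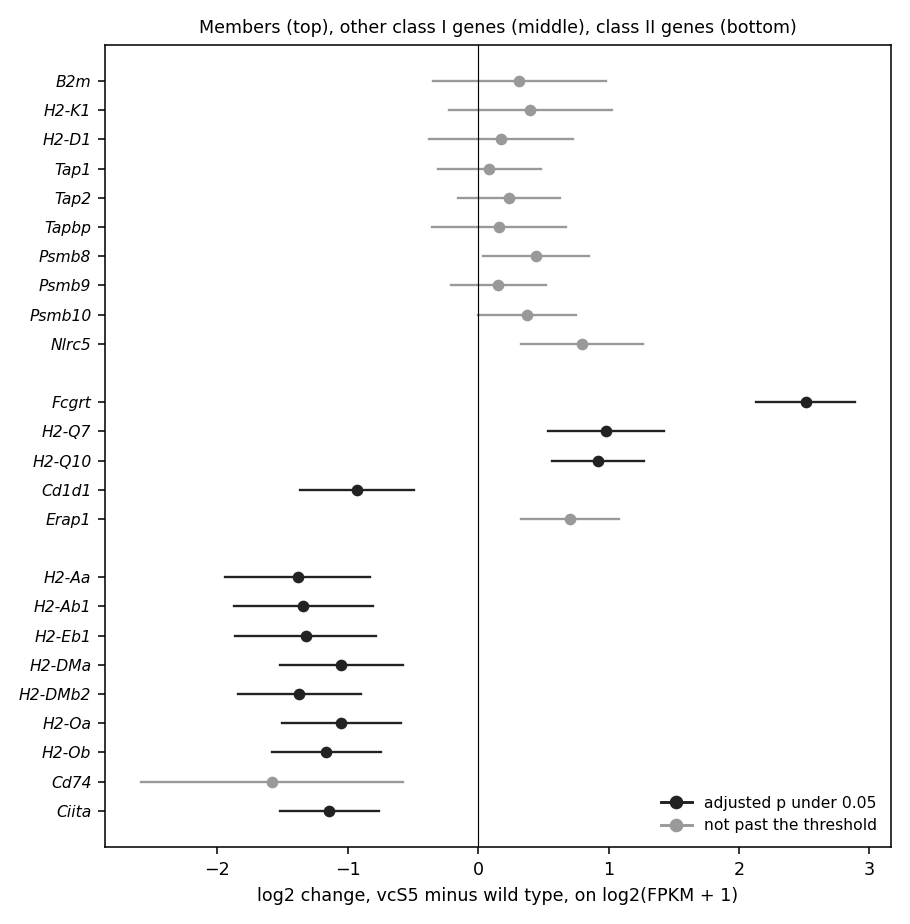
Log2 change of vcS5 over wild type with its 95% interval by limma for the 10 genes (top), other genes of class I biology (middle) and class II genes (bottom); black marks an adjusted p under 0.05. The 10 genes lie between 0.08 and 0.80 in grey, while the class II genes lie between -1.05 and -1.58.

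The class II genes went the other way. Of the 9 measured genes on the class II list, Ciita included, 8 were lower and 0 higher, where 4.13% of all rows were lower. The median of their log2 changes was -1.32, and Cd74, the invariant chain gene, alone did not pass (adjusted p = 0.0775 by limma). The class II beta chain gene H2-Ab1 measured 1724 and 1870 FPKM in the wild-type pair against 775 and 646 FPKM in the vcS5 pair, so it was above H2-K1 in both wild-type libraries and below it in both vcS5 libraries. Ciita, the transactivator of class II and the relative of Nlrc5, measured 62.7 and 75.1 FPKM in the wild-type pair against 31.1 and 30.02 FPKM in the vcS5 pair. It fell 2.25-fold (a log2 change of -1.14 with SE 0.150 and limma adjusted p = 0.0170). The gene overlaps Dexi, a protein-coding gene on the other strand. H2-DMb2 and H2-Ob, also on this list, fell by 1.37 and 1.17 on the log2 scale. With any 1 library left out, 0 of the 9 kept their calls.

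The mean log2 value of the 10 genes minus that of the 8 class II genes without Ciita was -1.44 and -1.67 in the wild-type libraries and -0.13 and 0.21 in the vcS5 libraries. The gap between the pathways therefore nearly closed in vcS5, a difference of 1.60. An exact permutation test, two-sided, gave p = 0.333, the smallest value that 2 against 2 samples can give.

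These class II falls ran beside the marker genes of cell types. For the counts below, 4.59% of all rows were higher and 4.13% lower by limma. B cell markers had 11 of 12 genes lower and none higher, with a summed level of 3754 to 4571 FPKM in the wild-type libraries against 1556 to 1605 FPKM in vcS5. Pan T cell markers had 7 of 12 higher, at 899 to 1211 FPKM and 2416 to 3184 FPKM, and CD8 T cell markers 5 of 6 higher, at 440 to 503 FPKM and 3530 to 3933 FPKM. Natural killer markers had 3 of 8 higher and 2 lower, at 198 to 211 FPKM and 346 to 382 FPKM. The 3 higher were Klra8, Prf1 and Klrd1. The 2 lower were Ncr1 (13.7 and 15.1 FPKM against 0.635 and 0.776 FPKM) and Klrb1b (3.22 and 3.19 FPKM against 0.132 and 0.201 FPKM). Macrophage, monocyte and dendritic markers had 1 gene of 11 higher and 1 lower, and the median log2 change was -0.37. Of the 11, 6 were lower in both vcS5 libraries than in both wild-type libraries, against 27.5% of all rows. Their summed level was 205 to 271 FPKM in wild type against 567 to 637 FPKM in vcS5, and this difference lay in the 1 gene that rose, Ly6c2 (127 and 78.8 FPKM against 483 and 525 FPKM), singled out after its values were seen. Erythroid markers ranged from 653 to 1969 FPKM within vcS5, and 0 of 8 passed by limma (0 at an unadjusted p under 0.05, 0 at the authors' q). Neutrophil markers summed to 6133 and 1853 FPKM in the wild-type libraries and to 1001 and 967 FPKM in vcS5. Their median log2 change was -1.60 and 9 of 10 lay lower without overlap, of which 1 passed by limma, while 7 had an unadjusted p under 0.05 and 9 passed at the q of the authors' deposited table. The part of these differences in the class I and class II values was not tested.

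Along chromosome 17 the 2 patterns alternate. Psmb9, Tap1, Psmb8 and Tap2 lie within the class II region, in that order, between H2-DMb2 and H2-Ob. Of 18 protein-coding genes with a row from Ring1 (start 34020792) to Btnl2 (end 34369495), 8 passed as lower and none as higher. Over all rows 4.13% were lower and 4.59% higher. All 8 were class II genes. The log2 change was -1.37 at H2-DMb2, 0.16, 0.08, 0.44 and 0.24 at the 4 members, and -1.17 at H2-Ob. The sign thus switched at each edge of the block of members. Brd2, a bromodomain gene that also lies among the class II genes, had a log2 change of -0.28 and did not pass. Col11a2 and Btnl2, also in this stretch and not class II genes, had larger log2 changes of 0.85 and -0.98. Neither passed (limma adjusted p = 0.170 and 0.0849).

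**Figure D3:**
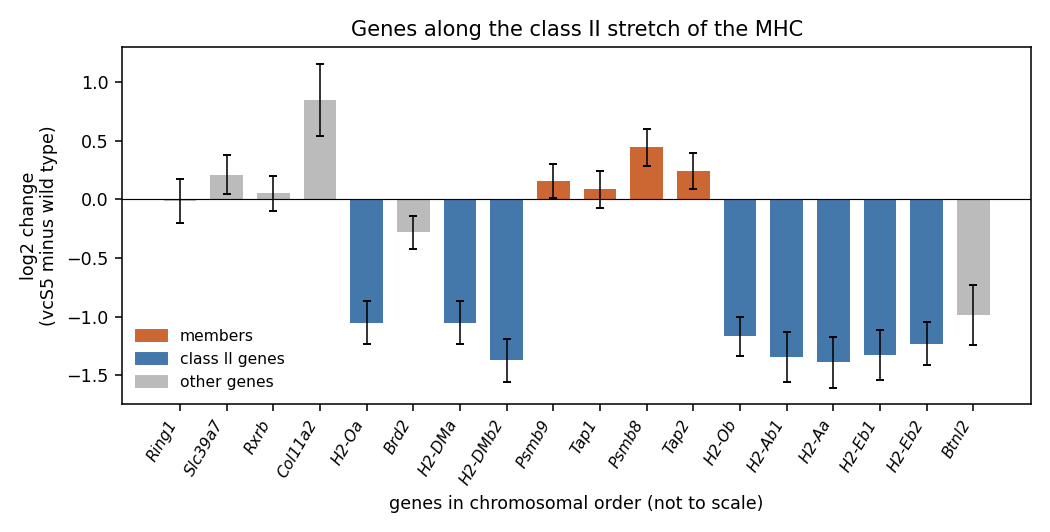
Log2 change of vcS5 over wild type (bars, with the SE by limma) for 18 protein-coding genes in their order along chromosome 17; orange bars are members, blue bars class II genes and grey bars other genes. The 4 members, from 0.08 to 0.44, stand between class II genes from -1.05 to -1.39.

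Other heavy chains that pair with beta-2 microglobulin moved in both directions. Among 16 such genes 3 rose and 1 fell, where 4.59% of all rows rose and 4.13% fell. The median of their log2 changes was 0.10. Fcgrt, the heavy chain of the neonatal Fc receptor, which binds antibody and albumin in place of peptide, rose 6.01-fold, from 16.6 and 16.7 FPKM in wild type to 91.1 and 109 FPKM in vcS5. The gene overlaps an antisense transcript, Gm45669. Its groups lay far apart (a log2 change of 2.51 with SE 0.149 and limma adjusted p = 0.00241), and leaving out any single library did not end its call (adjusted p from 0.0319 to 0.0449).

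The Qa region genes H2-Q7 and H2-Q10, which encode nonclassical class I chains, both rose. H2-Q7 measured 320.2 and 316 FPKM in the wild-type pair against 579.6 and 682 FPKM in the vcS5 pair (a log2 change of 0.98 with SE 0.174 and limma adjusted p = 0.0346). H2-Q10 measured 26.1 and 23.7 FPKM in the wild-type pair against 45.9 and 50.1 FPKM in the vcS5 pair (a log2 change of 0.92 with SE 0.138 and limma adjusted p = 0.0237). The other measured Q genes, which lie outside the naming rule, did not pass. H2-Q4, H2-Q6, H2-Q1 and H2-Q2 had log2 changes of 0.32, 0.32, 0.06 and 0.06. Q genes are near-identical copies, so these separate values are uncertain.

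Cd1d1, which presents lipids to natural killer T cells, fell from 35.5 and 44.8 FPKM in wild type to 21.9 and 19.1 FPKM in vcS5 (a log2 change of -0.93 with SE 0.172 and limma adjusted p = 0.0376). With any 1 library left out, 1 of these 4 calls was kept, that of Fcgrt.

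Of 13 genes of peptide trimming and loading, 0 passed by limma, where 8.72% of all rows did. An unadjusted p under 0.05 was found for 3, against 25.3% of all rows, and the median log2 change was 0.15. Erap1, the aminopeptidase that trims peptides inside the endoplasmic reticulum, came closest, with 32.1 and 27.5 FPKM in the wild-type pair against 51.2 and 47.1 FPKM in vcS5. Its groups lay apart (a log2 change of 0.70 with SE 0.147 and limma adjusted p = 0.0512), and the authors' deposited table gives it a q of 0.00404. It passed by limma when rows under a mean FPKM of 5 were dropped (0.0487) and with the replicate block (0.0433). Sec61b, Hspa5 and Tapbpl had log2 changes of 0.49, -0.47 and 0.44 (limma adjusted p = 0.103, 0.147 and 0.260). Erap1 overlaps Cast and Tapbpl overlaps Vamp1, protein-coding genes on the other strand, and reads from the opposite strands are counted together. Of 8 proteasome activator and assembly genes, 0 passed by limma or at the authors' q, 0 had an unadjusted p under 0.05, and the median log2 change was 0.15. Psme2, a subunit of the interferon-induced PA28 cap, measured 912 and 1123 FPKM in the wild-type pair against 1129 and 1435 FPKM in the vcS5 pair, a log2 change of 0.33, or 0.05 with quantile normalization. Pomp and Psmg3, which encode proteasome assembly chaperones, had log2 changes of 0.17 and -0.15.

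The interferon gamma genes did not move as one. Among 16 genes of this axis 4 rose and 1 fell, where 4.59% of all rows rose and 4.13% fell. The median of their log2 changes was 0.19. Ifng itself measured 7.72 and 4.80 FPKM in the wild-type pair against 25.0 and 21.9 FPKM in the vcS5 pair, a 3.74-fold rise (a log2 change of 1.78 with SE 0.232 and limma adjusted p = 0.0169). Socs1, a feedback inhibitor of this receptor, measured 12.8 and 9.12 FPKM in the wild-type pair against 38.7 and 32.2 FPKM in the vcS5 pair and rose by 1.62 on the log2 scale.

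The receptor chains changed in opposite directions. Ifngr1, the ligand-binding chain, measured 78.0 and 80.7 FPKM in the wild-type pair against 135 and 172 FPKM in the vcS5 pair (a log2 change of 0.94 with limma adjusted p = 0.0363). Ifngr2, the signalling chain, measured 36.7 and 41.6 FPKM in the wild-type pair against 19.4 and 13.8 FPKM in the vcS5 pair (a log2 change of -1.20 with limma adjusted p = 0.0292). Jak1, the remaining gene that rose (0.74, adjusted p = 0.0470 by limma), lies outside the naming rule and was chosen after its value was seen. It lost its call at a pseudocount of 5 (0.0513), when rows under a mean FPKM of 5 were dropped (0.0501) and without the variance trend (0.0506). The authors' deposited table gives it a q of 0.0696. Jak1 overlaps Raver2, a protein-coding gene on the other strand. Without wild type replicate 1 only the call of Ifng was kept in this group, and 0 calls were kept without any other single library.

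Of 12 genes for proteins that sit on or assist the SXY module, only Ciita passed, as lower, where 4.13% of all rows did. The median of the log2 changes was -0.03. Ep300, Rfx5 and Rfxap, a coactivator and subunits of the X box factor, had log2 changes of -0.39, -0.41 and 0.27 and did not pass. Nlrc5 and Ciita, the transactivators that work through this platform, thus had changes of opposite sign, 0.80 and -1.14, of which that of Ciita passed.

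Within a library, each immunosubunit can be set against the constitutive subunit it replaces. Of Psmb5, Psmb6 and Psmb7, 0 passed by limma or at the authors' q, and 0 had an unadjusted p under 0.05. Their log2 changes were -0.32, 0.17 and -0.09. Psmb7 overlaps Nek6, a protein-coding gene on the other strand. The ratio of Psmb10 to Psmb7 was 0.897 and 1.02 in the wild-type pair against 1.35 and 1.31 in the vcS5 pair. Both vcS5 libraries had the higher ratio, with a difference of 0.47 on the log2 scale (exact permutation p = 0.333, two-sided, the smallest possible here). The ratio of Psmb9 to Psmb6 was 2.22 and 2.17 in the wild-type pair against 2.25 and 2.09 in the vcS5 pair. These overlapped, and the difference was -0.018 on the log2 scale (exact permutation p = 1).

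The ratio of Psmb8 to Psmb5 was 0.747 and 0.591 in the wild-type pair against 1.93 and 0.662 in the vcS5 pair. The high value came from vcS5 replicate 1, where Psmb5 had 132 FPKM against 433 FPKM in replicate 2 and 251 and 353 FPKM in wild type. The log2 difference of that ratio was 0.76, and -0.0069 without vcS5 replicate 1, so it rests on that library.

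The proportion of the heavy chains to the light chain varied within each group. H2-K1 to B2m was 0.513 and 0.764 in the wild-type pair against 0.570 and 0.772 in the vcS5 pair, and H2-D1 to B2m was 0.447 and 0.583 in the wild-type pair against 0.402 and 0.532 in the vcS5 pair. In both ratios replicate 2 was the higher library of each group, and the groups overlapped (exact permutation p = 0.667 for each). With 1 library left out the log2 difference ran from -0.20 to 0.37 for H2-K1 and from -0.34 to 0.06 for H2-D1, so no direction can be read from either. Tap1 to Tap2 was 1.27 and 1.22 in the wild-type pair against 1.10 and 1.13 in the vcS5 pair, lower in both vcS5 libraries (log2 difference -0.16, exact permutation p = 0.333). Over the 6 ratios, p-values were left unadjusted because none could pass in this design.

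**Figure D4:**
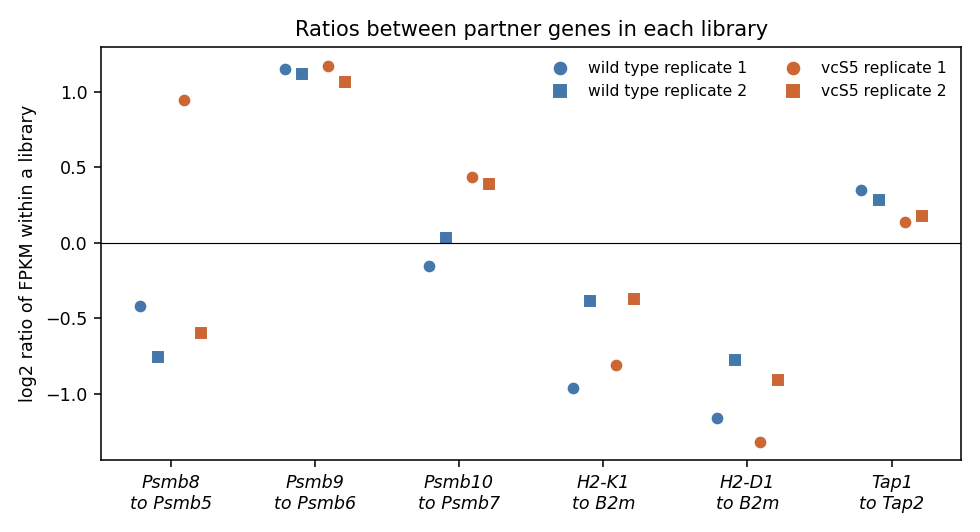
Log2 ratio of FPKM between partner genes within each of the 4 libraries (blue, wild type; orange, vcS5; circles, replicate 1; squares, replicate 2). The groups lie apart for Psmb10 to Psmb7 and for Tap1 to Tap2, overlap in the others, and vcS5 replicate 1 stands alone for Psmb8 to Psmb5.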

How the data were processed

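RNA from spleen suspensions was made into unstranded TruSeq v2 libraries and sequenced as 50 bp single-end reads, per the labels' protocols. Tools named in the submitters' processing notes, without roles or settings, are TopHat2 2.0.9, Bowtie2 2.1.0, Cuffdiff 2.1.1 and Cufflinks, and the build named is mm10. The authors deposited FPKM per library and group, a log2 fold change, a p-value and q-value and a test score, per the file headers. All 14226 rows have a mean FPKM above 1. Absolute depth is unknown. The commonest ratio of wild type replicate 1 to wild type replicate 2 and vcS5 replicates 1 and 2 among 2888 rows under 4 FPKM, sought between 0.7 and 1.4, was 0.847, 0.901 and 0.831, at 64, 46 and 27 rows, a rough estimate of relative depth. FPKM medians were 12.2 to 12.6.

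Values were transformed as log2(FPKM + 1) and fitted with limma 3.58.1 (R 4.3.3; variance trend, no covariates, two-sided, Benjamini-Hochberg over all rows, threshold 0.05), with 2 residual and 3.17 prior degrees of freedom. The scripts were tested on simulated data. The labels call the samples biological replicates and give each its own number, without saying that a number is a mouse, so p-values measure the spread between these samples. Replicate numbers are shared, but no source ties them to a litter or batch. Ratios were tested by exact permutation (scipy 1.17.1). Coordinates are GENCODE vM21 (GRCm38).

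Members and lists were chosen with earlier results of these data known. All members are named; of each pathway list, up to 4 genes with the lowest p by limma, and the paired constitutive subunits. Alternatives were other pseudocounts, filters and scalings, no variance trend, the replicate block, each library left out and the authors' own test.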

Additional observations from a re-analysis of the deposited data

How the results depend on the processing

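With 1 library left out at a time, between 71 and 245 rows passed, against 1241 with all 4, so such fits leave few calls to any gene; the lone sample is then assumed to vary like the other group. No member passed in those fits, and 1, Nlrc5, passed with quantile normalization and 1, Nlrc5, with the replicate number as a block. Over all rows, same-numbered libraries deviated together only weakly (correlation 0.176, from 2 pairs), and with the replicate block 1028 rows passed. Among the members (main row for H2-K1), replicate 2 was the higher library in both groups for all but B2m, where replicate 1 was. The share of all rows with such a shared order was not computed. Quantile normalization turned the sign of H2-D1 (-0.14) and lowered the changes of B2m from 0.32 to 0.09, of H2-K1 from 0.40 to 0.10 and of Psme2 from 0.33 to 0.05. With 1 library left out the change of Tap1 ran from -0.019 to 0.19, of Tapbp from -0.0033 to 0.33, of Psmb7 from -0.21 to 0.023 and of Psmb5 from -1.17 to 0.54; the cause was not tested. The other 7 members (main row for H2-K1) kept a positive sign in all 13 alternatives. Of the named genes of other lists, Cd1d1 and Ifngr2 also lost their calls with the replicate block (adjusted p = 0.0673 and 0.0589 by limma). Read numbers are not known, so no counting error could be given, and with 2 libraries a group no permutation test could fall below 0.333.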
